A study of Triticum aestivum with 16 samples.

Results

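The segment of wheat chromosome 6D around SVP1-6D (TraesCS6D02G293200) comprised the 138 rows with identifiers from TraesCS6D02G286000 to TraesCS6D02G300000. SVP1-6D itself was set apart, which left 137 members out of 120744 identifiers in the files, 107891 of them wheat genes. The segment was chosen on measured values: it is centred on SVP1-6D because that gene stood higher in the M6 mutant than in the wild type in these same libraries. The comparison of M6 with wild type is therefore given as a description. It was made to see whether genes beside SVP1-6D differ as well, as they could if a stretch of chromosome differed between the lines. Whether such a stretch differs was not tested. Contrasts that the choice did not use were tested: bud against apex in the wild type and in a second cultivar. Also tested was whether the mutant's difference from the wild type itself differs between bud and apex. That contrast is built from the M6 minus wild type differences of both tissues, which the choice used at SVP1-6D, so it is not independent of the choice.

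Bread wheat is a hexaploid that carries related A, B and D subgenomes, so that most genes exist in homoeologous copies. Its gene identifiers are numbered along each chromosome, and neighbours in identifier order are therefore neighbours on the chromosome. SVP genes encode MADS-box transcription factors named after Arabidopsis Short Vegetative Phase, known in grasses for roles in flowering time and in the vegetative meristem. SPL genes encode Squamosa promoter binding protein-like transcription factors, which act in phase change and in shoot branching. TB1, named for the maize gene teosinte branched, encodes a TCP transcription factor of the axillary bud that restrains its outgrowth.

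Messenger RNA was sequenced from 16 libraries in 8 groups of 2. In the cultivar Zhengmai7698 (ZM7698), the shoot apex and the axillary bud, at a bud length of 1.0 to 2.0 cm, were sampled at an age of 2 weeks from the wild type (WT) and from M6, a hexa-mutant labelled TaSPL7-aabbdd_TaSPL15-aabbdd, that is with the A, B and D copies of both SPL genes changed. In the cultivar AiKang58 (AK58), leaves, roots and shoot apices were sampled at 2 weeks, and axillary buds of the same size after a further 30 days of vernalization at 4 °C, so that tissue, age and cold change together in that bud. The labels do not say how M6 was made, whether it is 1 line, whether it was crossed back to its parent, or how many plants went into a library. They do not say that the libraries of a group came from separate plants, so p-values measure the spread between libraries, which may be technical. Identifiers of TaSPL7 and TaSPL15 are not paired with names in the files, and the mutated genes were not checked. The members carry no names there either, and 0 identifiers matched the reference gene table, so members are given by identifier and without a function.

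ZM7698 levels are TPM, a unit that is scaled to an equal total in each library and corrected for gene length, and the read depth behind them is unknown. AK58 levels are normalised reads, which are not corrected for length and are compared only between tissues; they rest on 51497044 to 79585209 reads per library. The 3 TB1 copies summed to 19.8 to 23.1 TPM in the WT bud and 3.09 to 5.24 TPM in the WT apex, and to 28.1 to 38.4 TPM in the M6 bud and 2.92 to 3.87 TPM in the M6 apex. In AK58 they had no reads in leaf and root, 109 to 147 normalised reads in the apex and 49.7 to 87.9 in the bud, so the sum was not higher in the AK58 bud than in its apex. In tissue samples, fewer cells of a type and less RNA per cell cannot be told apart. The AK58 root libraries stood apart from each other, with a correlation of log2 values of 0.770 against 0.965 to 0.980 in the other AK58 groups, and 36 members were at least 4-fold higher in root replicate 2 than in replicate 1. Root replicates were that far apart, in either direction, in 33.3% of tested members and 27.0% of all tested identifiers.

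Most of the segment was transcribed in ZM7698, and the expressed members were interspersed with silent ones. Of the 137 members, 83 reached 1 TPM in at least 2 of the 8 libraries and entered the fits, 39 were above 0 but below that filter, and 15 were listed at 0 in all 8 libraries. The 83 tested members had a median of 7.31 TPM, beside 4.54 TPM over all 50878 tested identifiers, and 29 members averaged at least 10 TPM. Members under 0.1 TPM in all 8 libraries numbered 23, or 16.8% of the members, beside 34.3% of all wheat genes. They fell into 14 runs of adjacent rows, and the longest run held 6 rows, from TraesCS6D02G298600 to TraesCS6D02G299100. In AK58, 111 members reached 10 normalised reads in at least 2 libraries, 82 of them also tested in ZM7698. No read was found in any AK58 library for 12 members, and 9 members were at 0 in all 16 libraries.

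The member with the highest level was TraesCS6D02G286900, with a mean of 177.5 TPM over the 8 ZM7698 libraries. TraesCS6D02G296700 was the next highest and varied little, from 129 to 160 TPM over all 8 libraries, and the genotypes overlapped. TraesCS6D02G287100 stood at 150 and 160 TPM in the WT apex, 114 and 116 TPM in the M6 apex, 126 and 110 TPM in the WT bud and 71.4 and 89.5 TPM in the M6 bud, so that it was lower in M6 within each tissue while the genotypes overlapped across tissues. The other two of the 5 highest, TraesCS6D02G291600 and TraesCS6D02G298300, were high in the WT bud and are described with the bud.

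At the ends of the segment the levels did not mark a border. Just inside, TraesCS6D02G286000 ranged from 2.03 to 3.44 TPM and TraesCS6D02G286100 from 8.37 to 10.5 TPM, and at the other end TraesCS6D02G299900 was listed at 0 throughout and TraesCS6D02G300000 reached at most 0.035 TPM. Just outside, TraesCS6D02G285800 ranged from 10.8 to 16.5 TPM, TraesCS6D02G285900 from 0.585 to 1.00 TPM, TraesCS6D02G300100 from 0.118 to 1.12 TPM and TraesCS6D02G300200 from 0 to 0.024 TPM. Neither genotype was higher throughout in any of these 8 rows.

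**Figure D1:**
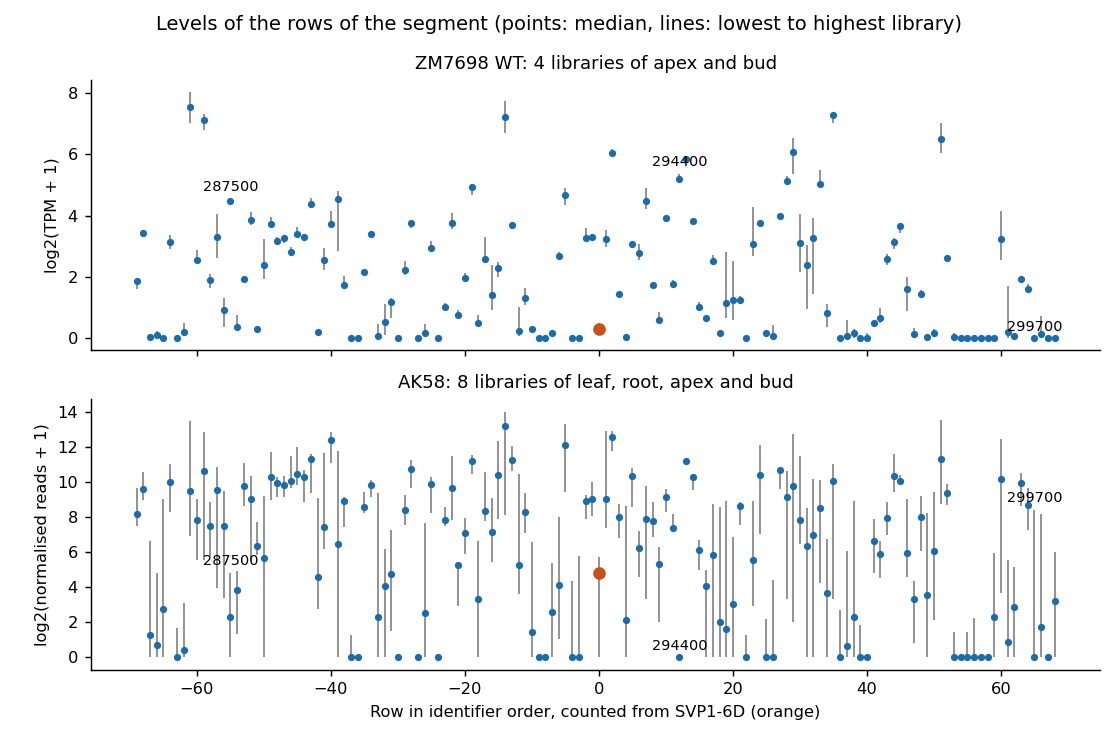
Level of each of the 138 rows in identifier order, counted from SVP1-6D at 0 (orange), in the 4 WT libraries of ZM7698 as log2(TPM + 1) and in the 8 AK58 libraries as log2(normalised reads + 1). Points are medians and lines run from the lowest to the highest library; silent rows lie between expressed ones, and TraesCS6D02G294400 is expressed in ZM7698 and has 0 reads in AK58.

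SVP1-6D was at 0.188 and 0.395 TPM in the WT apex and 0.154 and 0.268 TPM in the WT bud. In M6 it was at 9.83 and 9.51 TPM in the apex and 14.5 and 9.07 TPM in the bud. On the log2(TPM + 1) scale, which understates the change of low genes, the difference was 3.05 ± 0.21 (SE) in the apex and 3.37 ± 0.21 in the bud. In AK58 it had between 0 and 51.0 normalised reads in every library. These values chose the segment and are no test of it.

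Against this background, 2 members were lower in M6 than in WT by the criterion of an adjusted p under 0.05 and a log2 difference of at least 1, and they were the same 2 in apex and bud. None was higher. In the apex this is 0 members higher beside 0.0786% of all tested identifiers, and 2 of 83 lower, or 2.41%, beside 0.055%. In the bud it is 0 higher beside 0.0806%, and 2 of 83 lower beside 0.0668%. Among the other 1886 tested chromosome 6D identifiers, 1 was higher and 1 lower in each tissue. The counts come from the contrast that chose the segment and nothing is read from them.

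TraesCS6D02G287500, 55 rows before SVP1-6D, was at 22.6 and 20.0 TPM in the WT apex and 19.9 and 22.2 TPM in the WT bud. In M6 it was at 0.00807 TPM in apex replicate 1, at 0.0105 TPM in bud replicate 1 and listed at 0 in both other libraries. It thus had a steady level in both WT tissues and almost none in M6, with a log2 difference of −4.47 ± 0.11 in the apex and −4.45 ± 0.11 in the bud. In AK58 the leaf had 11.0 and 27.8 normalised reads of it, the root 0, the apex 1.67 and 1.70 and the bud 7.93 and 8.22. AK58, for which the labels name no mutation, was thus low at this gene in all 4 tissues.

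TraesCS6D02G294900, 17 rows after SVP1-6D, was at 4.17 TPM in both WT apex libraries and at 5.39 and 5.60 TPM in the WT bud. It was listed at 0 in all 4 M6 libraries. The log2 difference was −2.37 ± 0.11 in the apex and −2.70 ± 0.11 in the bud; its size depends on the added 1 TPM. In AK58 it was present in the apex, at 279 and 435 normalised reads, and in the bud, at 334 and 236, and low in the leaf and root, at 0 to 13.2. The gene was therefore expressed in the shoot of both cultivars and not found in M6.

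Both genes had at least 1 TPM in every WT library and under 0.1 TPM in every M6 library. This pattern was met by 0.0157% of all tested identifiers, 8 in all, and 2 of those 8 were members of the segment. The reverse, presence in M6 alone, was met by 0 members and by 0.0354% of all tested identifiers. No other tested chromosome 6D identifier met either. Since the segment was proposed with these values in view, the counts describe it and carry no test. The 0 values do not tell a deleted gene from one that was not transcribed, or from a copy whose reads were not assigned to the identifier, and this was not tested.

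A further 3 members, separated by genotype with a mean absolute log2 difference of at least 0.5 over the tissues, did not reach the criterion. In each of them all 4 M6 libraries lay on one side of all 4 WT libraries. TraesCS6D02G294200, 10 rows after SVP1-6D, was at 15.1 and 12.9 TPM in the WT apex and 13.4 and 14.6 TPM in the WT bud, against 3.39 and 3.78 TPM in the M6 apex and 6.98 and 3.59 TPM in the M6 bud. Its M6 mean was 25.7% of WT in the apex and 37.7% in the bud, with log2 differences of −1.70 ± 0.25 and −1.31 ± 0.25, and it met the criterion in the bud without M6 bud replicate 1 and in the apex without either M6 bud library. Its AK58 levels were similar in all tissues, with group means between 416 and 764 normalised reads.

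TraesCS6D02G289000, 40 rows before SVP1-6D, was at 11.3 and 12.2 TPM in the WT apex and 12.3 and 16.8 TPM in the WT bud. In M6 it was at 6.94 and 7.57 TPM in the apex and 7.98 and 7.16 TPM in the bud, which is 61.6% and 52.1% of the WT means. The genotypes did not overlap, and the log2 differences were −0.63 ± 0.16 and −0.84 ± 0.16. TraesCS6D02G297300, 41 rows after SVP1-6D, moved the other way at a low level, from 0.353 to 0.470 TPM in the WT libraries to 2.10 and 1.51 TPM in the M6 apex and 1.15 and 1.14 TPM in the M6 bud. Its M6 mean was 4.50-fold that of WT in the apex and 2.78-fold in the bud.

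**Figure D2:**
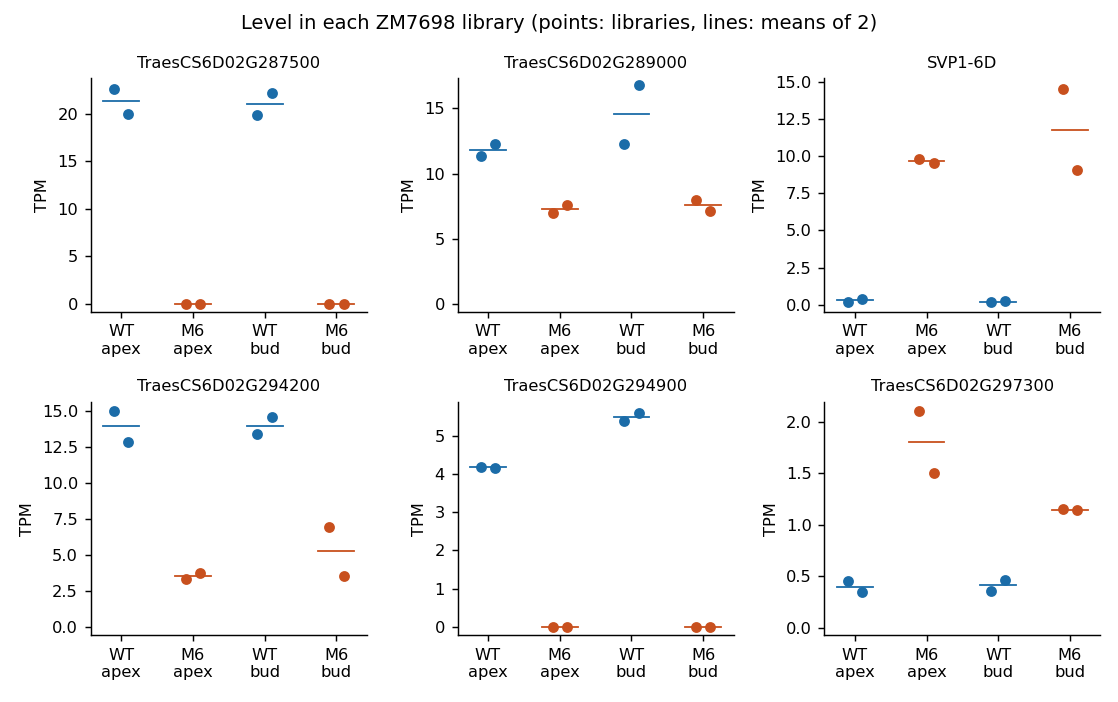
TPM of 5 members and of SVP1-6D in each of the 8 ZM7698 libraries, by genotype and tissue. Points are libraries and lines are means of 2; the genotypes do not overlap in any panel, and both M6 tissues are at or near 0 for TraesCS6D02G287500 and TraesCS6D02G294900.

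In all, 8 tested members had all 4 M6 libraries on one side of all 4 WT libraries. One was higher in M6, 1.20% of the members beside 1.92% of all tested identifiers, and 7 were lower, 8.43% beside 2.78%. Besides the 5 described, these were TraesCS6D02G293100, TraesCS6D02G298400 and TraesCS6D02G299500, named here because the count is small, with differences no larger than 0.25 on the log2 scale in either tissue. TraesCS6D02G293100 is the row directly before SVP1-6D, at 8.59 to 9.37 TPM in WT and 7.18 to 8.05 TPM in M6. The count rose to 14 without WT bud replicate 2 or without M6 apex replicate 2. Leaving out a library can only keep this count or raise it, so nothing is read from the rise.

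The members called, or separated by genotype with a mean difference of at least 0.5, were not adjacent to one another. The genes closest to SVP1-6D did not meet the criterion. The 5 tested members nearest on each side had apex differences between −0.25 and 0.45 and bud differences between −0.61 and 0.49, the lowest being that of TraesCS6D02G292700 in the bud. TraesCS6D02G293300, the row directly after SVP1-6D, was at 6.91 and 6.89 TPM in the WT apex and 9.99 and 9.63 TPM in the M6 apex, and at 10.4 and 10.6 TPM in the WT bud and 7.88 and 9.99 TPM in the M6 bud. It was thus higher in M6 in one tissue and lower in the other. TraesCS6D02G293400, the next row, stayed between 56.5 and 70.5 TPM in all 8 libraries, with log2 differences of −0.03 ± 0.11 in the apex and −0.21 ± 0.11 in the bud.

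TraesCS6D02G293000, TraesCS6D02G293500, TraesCS6D02G293700, TraesCS6D02G293800, TraesCS6D02G291900 and TraesCS6D02G292600 made up the rest of the nearest 10 with TraesCS6D02G292700, which is described with the bud. TraesCS6D02G292600 had the widest libraries among them, 5.02 to 6.05 TPM in WT and 4.27 to 10.8 TPM in M6, with M6 bud replicate 1 the highest. Between TraesCS6D02G287500 and SVP1-6D lay 34 tested members. Of these, 4 in the apex and 6 in the bud differed by 0.5 or more, beside 8.17% and 12.7% of all tested identifiers. Between SVP1-6D and TraesCS6D02G294200 lay 7, with differences from −0.12 to 0.45 in the apex and −0.30 to 0.05 in the bud. Between TraesCS6D02G294200 and TraesCS6D02G294900 lay 5, from −0.21 to 0.39 and from 0.03 to 0.27. Farther out, differences of 0.5 or more were denser in some stretches, which are bounded by the differing members themselves or by the ends of the segment. Of 14 tested members between TraesCS6D02G294900 and TraesCS6D02G297300, 6 in the apex and 2 in the bud differed by that much, and 0 were separated by genotype. Of 8 between TraesCS6D02G286000 and TraesCS6D02G287500, 0 and 3 did, and of 10 between TraesCS6D02G297300 and TraesCS6D02G300000, 1 and 2 did. Separated by genotype were 0 of these 8 and 2 of these 10.

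**Figure D3:**
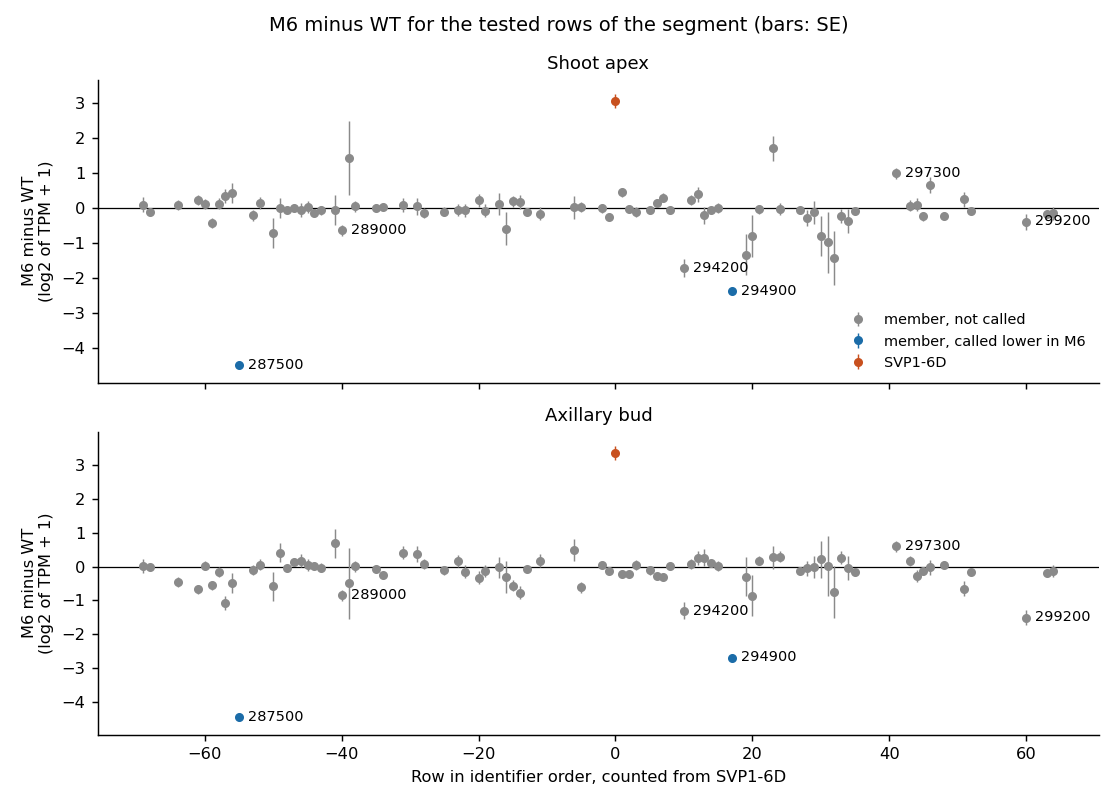
M6 minus WT difference on the log2(TPM + 1) scale with its SE for SVP1-6D (orange) and the 83 tested members, by row in identifier order counted from SVP1-6D; upper panel apex, lower panel bud. The 2 members that met the criterion (blue, at −55 and 17) are not adjacent to SVP1-6D, and most members between them and SVP1-6D differ by under 0.5; labels give the last digits of the identifiers.

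Over all 83 tested members the median difference was −0.05 in the apex and −0.07 in the bud, beside −0.05 and 0.03 over all tested identifiers. The difference was under 0.5 either way for 68 members in the apex and 66 in the bud. It was 0.5 or more for 15 members in the apex, or 18.1%, beside 8.17% of all tested identifiers and 7.64% of the rest of chromosome 6D. In the bud it was 0.5 or more for 17 members, or 20.5%, beside 12.7% for both. In both tissues at once, 7 of 83 members were lower by at least 0.5, beside 662 of all 50878 tested identifiers, and 1 was higher, beside 628. Of the 15 members in the apex, 10 had libraries that did not overlap between genotypes, and 3325 or 6.54% of all tested identifiers were likewise 0.5 or more apart without overlap. Of the 17 in the bud, 15 did not overlap, which is 18.1% of the 83 tested members, and over all tested identifiers 4886 or 9.60% were of this kind.

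Part of these larger differences went with single libraries. In WT apex replicate 2, 6 members stood at least 1 above replicate 1 on the log2 scale and 0 below, beside a difference of that size between these replicates in 3.70% of all tested identifiers. TraesCS6D02G296400 was at 7.60 and 14.1 TPM in the WT apex against 3.16 and 3.29 TPM in the M6 apex, a difference of −1.43 ± 0.77. Its bud values were 9.69 and 1.74 TPM in WT and 4.92 and 0.772 TPM in M6. Replicate 1 was thus higher in both bud groups and replicate 2 in the WT apex. How far single libraries make these differences was not tested beyond leaving each out, after which 13 to 18 members differed by 0.5 or more in the apex. In the bud the 17 members became 13 without M6 bud replicate 1, 28 without M6 bud replicate 2, 19 without WT bud replicate 1 and 24 without WT bud replicate 2. In the apex the shares were 15.7% to 21.7% of the members, beside 8.70% to 12.6% of all tested identifiers. In the bud they were 15.7% beside 9.15% without M6 bud replicate 1 and 33.7% beside 26.2% without M6 bud replicate 2. They were 22.9% beside 11.7% without WT bud replicate 1 and 28.9% beside 17.2% without WT bud replicate 2.

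TraesCS6D02G289100 was the most uneven member, with 111 TPM in M6 apex replicate 1 and 11.9 TPM in replicate 2, and 6.23 and 26.8 TPM in the WT apex. Its apex difference of 1.42 ± 1.05 was close to its error. TraesCS6D02G295500 had a difference of 1.70 ± 0.35 in the apex, where WT stood at 5.46 and 6.00 TPM and M6 at 17.2 and 25.1 TPM. In the bud, WT at 18.2 and 8.86 TPM and M6 at 12.8 and 19.0 TPM overlapped.

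Several members were higher in the axillary bud than in the apex of WT, a contrast that the choice of the segment did not use. By limma's test with Benjamini-Hochberg adjustment over all tested identifiers, 2 of 83 members rose in the WT bud, beside 1.61% of all tested identifiers, and 0 fell, beside 0.884%. The share of members is close to that background. At an unadjusted p under 0.05 there were 16 members in either direction, or 19.3%, beside 17.3% of all tested identifiers, and the median difference was −0.01, beside −0.06 over all. The sign of the members' median depended on the scaling and the libraries, since it was 0.04 with median centring.

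TraesCS6D02G299200 was at 5.11 and 4.84 TPM in the WT apex and 13.5 and 16.7 TPM in the WT bud, 3.03-fold higher by the means, with a log2 difference of 1.42 ± 0.23 and an adjusted p of 0.0309 by limma. TraesCS6D02G287300 was at 5.05 and 5.51 TPM in the WT apex and 13.6 and 15.7 TPM in the WT bud, 2.77-fold higher, with 1.32 ± 0.21 and an adjusted p of 0.0303. Neither call was stable. Both were lost without either WT apex library and without either WT bud library, and 1 was left without either M6 apex library. Over all tested identifiers the 821 higher calls became 296 and 0 without WT apex replicates 1 and 2, 5 and 0 without WT bud replicates 1 and 2, and 488 and 491 without M6 apex replicates 1 and 2. The log2 difference over all the alternatives stayed between 1.01 and 1.57 for the former and between 0.93 and 1.45 for the latter.

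Of the 5 highest members, 3 were about doubled in the WT bud in TPM but missed the required log2 difference of 1. TraesCS6D02G286900 was at 138 and 128 TPM in the WT apex and 255 and 262 TPM in the WT bud, a log2 difference of 0.95 ± 0.14 with an adjusted p of 0.0270 by limma. TraesCS6D02G291600 was at 107 and 102 TPM in the WT apex and 205 and 212 TPM in the WT bud, a difference of 0.99 ± 0.19 with an adjusted p of 0.0471. TraesCS6D02G298300 was at 64.4 and 66.2 TPM in the WT apex and 128 and 123 TPM in the WT bud, a difference of 0.93 ± 0.22 with an adjusted p of 0.0728. TraesCS6D02G292700, 5 rows before SVP1-6D, was at 19.3 and 20.6 TPM in the WT apex and 28.7 and 28.6 TPM in the WT bud. In each of these members both WT bud libraries lay above both WT apex libraries.

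In M6 the bud libraries of the same 6 members overlapped the apex libraries, and bud against apex was not tested in M6. The 6 were grouped by a high WT bud, a choice that by itself favours an M6 bud below it. TraesCS6D02G286900 was at 145 and 180 TPM in the M6 bud and 169 and 144 TPM in the M6 apex. TraesCS6D02G291600 was at 97.8 and 150 TPM in the M6 bud and 122 and 114 TPM in the M6 apex. TraesCS6D02G298300 was at 62.4 and 102 TPM in the M6 bud and 81.7 and 74.1 TPM in the M6 apex. In all 3 the M6 bud libraries lay below the WT bud libraries and overlapped the M6 apex.

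TraesCS6D02G299200 was at 3.76 and 5.65 TPM in the M6 bud, 31.2% of the WT bud mean, while its M6 apex libraries had 4.41 and 2.86 TPM. TraesCS6D02G287300 was at 5.13 and 8.10 TPM in the M6 bud, 45.1% of the WT bud mean, while its M6 apex libraries had 7.70 and 6.25 TPM. TraesCS6D02G292700 was at 15.6 and 21.7 TPM in the M6 bud and 19.8 and 21.1 TPM in the M6 apex. The M6 minus WT difference in the bud was −1.51 ± 0.23 for TraesCS6D02G299200 and −1.06 ± 0.21 for TraesCS6D02G287300, and from −0.78 to −0.61 for the other 4. This difference and the bud-to-apex difference of WT share the WT bud libraries, so the values are given side by side only.

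The test of whether the M6 minus WT difference itself differs between bud and apex made no call in any member, beside 0% of all tested identifiers. By limma, 12 of 83 members and 4105 of all 50878 tested identifiers had an unadjusted p under 0.05. The smallest adjusted p of a member by that test was 0.413. The count was 5 of 83 members without M6 bud replicate 2, or 6.02%, beside 3.22% of all tested identifiers in the same fit. These were TraesCS6D02G286900, TraesCS6D02G287300, TraesCS6D02G291600 and TraesCS6D02G298300 downwards and TraesCS6D02G288900 upwards. The members downwards were described above for a high WT bud level. That level is part of the difference tested here, so their direction is favoured by that choice. Without that library M6 was called lower in the bud at 5 members, beside 614 of all tested identifiers or 1.21%, and higher at 1, beside 1416 or 2.78%. Calls thus rose across the whole table, from 34 lower and 41 higher, and the M6 bud then rested on 1 library assumed to vary like the others. The M6 bud replicates were the least alike in ZM7698, with a difference of at least 1 on the log2 scale in 5.76% of all tested identifiers and in 4 members.

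**Figure D4:**
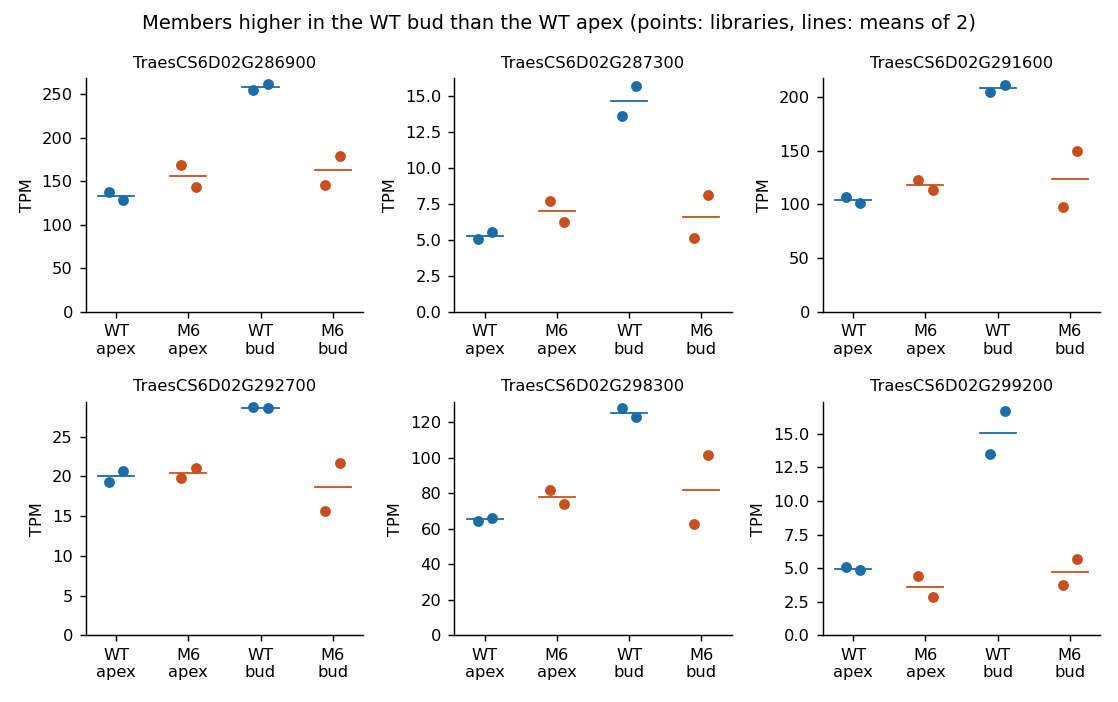
TPM in each ZM7698 library of 6 members whose WT bud libraries lie above their WT apex libraries. Points are libraries and lines are means of 2. In each panel the M6 bud libraries lie below the WT bud libraries and overlap the M6 apex, with M6 bud replicate 2 (right) above replicate 1. The members were grouped by a high WT bud, which favours an M6 bud below it.

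In AK58, where the bud was older and vernalized, 17 of 111 tested members rose in the bud relative to the apex, or 15.3%, beside 9.7% of all tested identifiers, and 10 fell, or 9.01%, beside 8.12%. These calls come from limma on log2(normalised reads + 1). The number that rose was 10 without either apex library, 7 without either bud library and 23 without either root library. The number that fell was 4 without either apex library, 1 without bud replicate 1, 5 without bud replicate 2 and 24 without either root library or both, whose spread enters the error that the fit shares.

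Of the 5 called members with the largest rise, 4 were among those that were high in the WT bud of ZM7698. TraesCS6D02G299200 went from 11.7 and 25.5 normalised reads in the apex to 1653 and 1860 in the bud, a log2 difference of 6.58 ± 0.55 with an adjusted p of 0.00139 by limma. TraesCS6D02G287300 went from 16.7 and 14.4 to 1267 and 1096, a difference of 6.16 ± 0.80. TraesCS6D02G289100, the uneven member of the M6 apex, went from 31.7 and 55.2 to 2301 and 3543, a difference of 6.06 ± 0.65. TraesCS6D02G291600 rose from 278 and 515 to 10434 and 9227, and TraesCS6D02G298300 from 425 and 559 to 11969 and 9938. TraesCS6D02G286900 went from 214 and 231 to 11670 and 9905, a larger difference of 5.59 ± 1.57 that was not called, with an adjusted p of 0.0562; its root libraries were far apart.

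All 5 called members were also above their apex level in the leaf. The leaf held 3182 and 5616 normalised reads of TraesCS6D02G299200, 1865 and 980 of TraesCS6D02G287300 and 16686 and 10007 of TraesCS6D02G291600. TraesCS6D02G289100 was at most 1.88 normalised reads in the root and 159 in the leaf, so it was highest in the bud. TraesCS6D02G291600 lost its call in 4 of the 8 fits that left out 1 library, and the other 4 kept theirs in all 8.

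Among the members that fell, TraesCS6D02G295600 had the highest level, 2728 and 4521 normalised reads in the AK58 apex and 133 and 150 in the bud, a log2 difference of −4.63 ± 0.36 with an adjusted p of 0.00118 by limma. The same gene stayed between 11.7 and 18.1 TPM in all 8 ZM7698 libraries, and its WT bud minus apex difference was −0.04 ± 0.17. TraesCS6D02G296900 went from 66.8 and 42.4 normalised reads in the apex to 0 in both bud libraries, and TraesCS6D02G292500 from 40.1 and 28.0 to 0 and 0.822. TraesCS6D02G299300 went from 46.8 and 17.8 to 0 and 0.822, and TraesCS6D02G299400 from 35.1 and 31.4 to 0 and 1.64. These 4 rest on few reads in AK58 and were below the filter in ZM7698.

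The sign of the difference was shared with ZM7698, with which AK58 has no library in common. Of the 17 members that rose, 15 were tested in ZM7698 and all 15 had a higher mean in the WT bud than in the WT apex, 6 of them by at least 0.5 on the log2 scale. Of the 10 that fell, 4 were tested and all 4 were lower in the WT bud. Over all identifiers called higher in the AK58 bud and tested in ZM7698, 83.2% of 5317 had that sign, and of those called lower 80.4% of 3337. The median WT difference of the 15 members was 0.43, beside 0.41 over the 5317. For the 4 members it was small, −0.13, beside −0.17 over the 3337. The sizes cannot be compared directly, because the cultivars are in different units.

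**Figure D5:**
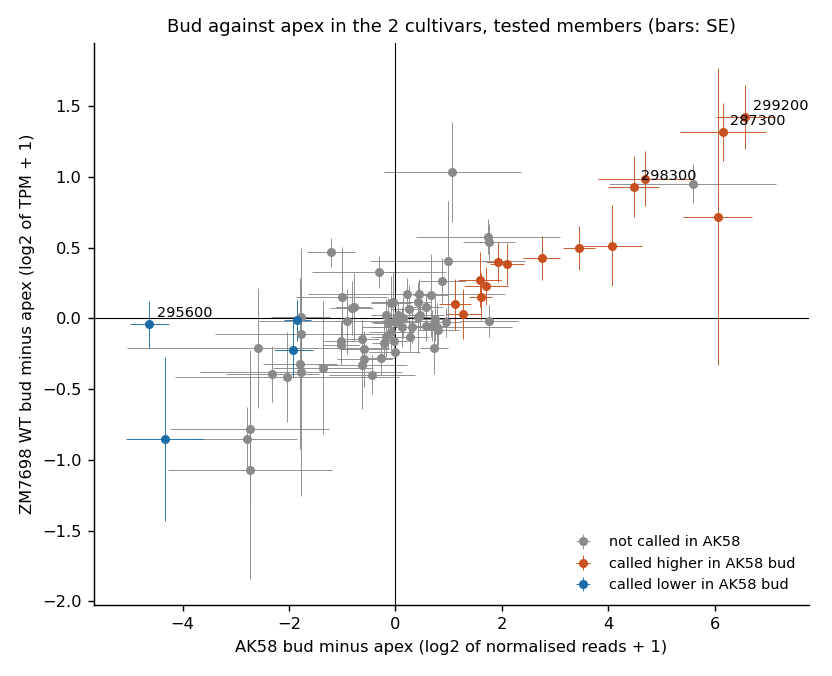
Bud minus apex difference of the 82 members tested in both cultivars, AK58 on the x axis (log2 of normalised reads + 1) and ZM7698 WT on the y axis (log2 of TPM + 1), with SE bars. Members called higher (orange) or lower (blue) in the AK58 bud have the same sign in ZM7698, and labels give the last digits of 4 identifiers.

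Across the 4 AK58 tissues, the 111 tested members were highest in the apex in 36 cases, in the leaf in 27, in the root in 27 and in the bud in 21. These are 32.4%, 24.3%, 24.3% and 18.9%, beside 28.5%, 22.9%, 30.9% and 17.7% of all tested identifiers. One member stood out between the cultivars and was named after its values were seen. TraesCS6D02G294400, 12 rows after SVP1-6D, was at 32.2 to 57.7 TPM in all 8 ZM7698 libraries and had 0 reads in all 8 AK58 libraries, a count that allows up to 3 reads per library. Of the 69 members with at least 1 TPM in all 8 ZM7698 libraries it was the only one without AK58 reads, and 390 of all 41355 such identifiers, or 0.943%, showed the same. Its M6 and WT libraries overlapped. The cultivars are in different units and the program behind the AK58 counts is unknown. The 0 reads therefore do not tell an absent or silent gene from reads not assigned to the identifier, which was not tested. TraesCS6D02G299700, named in the same way, showed the reverse, with 346 and 323 normalised reads in the AK58 root, 0 in the other AK58 tissues and 0 TPM in ZM7698, where no root was sampled.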

How the data were processed

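Stranded messenger RNA libraries of bread wheat were used, 2 per group in 8 groups, grouped by the titles and cultivar, tissue and genotype labels. The submitters' processing notes name Trimmomatic, StringTie 1.3.3b and HISAT2 2.0.5, without their settings, and neither a genome build nor the program behind the AK58 counts is given in the sources used here. In ZM7698 the authors deposited TPM, equal in sum between libraries. In AK58 the deposited values behave as a signal made of whole reads divided by a factor for each library, from which 100% of values came back whole within 0.001 reads. AK58 was planned as TPM or as normalised reads, and the plan for the latter was used.

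Each cultivar was fitted alone in R 4.3.3 by limma 3.58.1, with an intensity trend, on log2(value + 1), all 8 libraries together as group means, over the whole table, two-sided, with Benjamini-Hochberg adjustment. Identifiers needed 1 TPM (50878 tested) or 10 normalised reads (69525 tested) in 2 libraries, and calls were made at an adjusted p under 0.05 with a log2 difference of 1 or more. edgeR 4.0.16 was run on the recovered AK58 reads as an alternative, and calls were tested on simulated data. A member was counted as separated by genotype when the 4 M6 libraries lay all above or all below the 4 WT libraries. Reads shared by near-identical copies, such as homoeologs, may have been split between identifiers, and overlapping genes were not checked.

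The members and the lists of named genes were chosen with earlier results of these data known. Named are members called, separated by at least 0.5 or present in 1 genotype alone; the 5 nearest tested on each side of SVP1-6D; the 5 highest; the 5 largest differences per tissue; members called between bud and apex (in AK58 the 5 largest each way); and the rows at the bounds. Exceptions are stated where they occur. All sample columns were used. The alternatives were other added constants, filters, scalings and error models, a replicate block, the contrasted groups alone, and leaving out each library.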

Additional observations from a re-analysis of the deposited data

How the results depend on the processing

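The 2 members called lower in M6 became 1 in the apex with 5 TPM added or with a filter of 5 TPM, and 1 in the bud with a filter of 5 TPM or with the contrasted groups alone; TraesCS6D02G287500 was called in all 17 alternatives in each tissue and TraesCS6D02G294900 in 15 of 17. With 5 TPM added its apex difference shrank to −0.87, below the required 1. Under the 5 TPM filter its differences stayed at −2.37 and −2.70, but the SE was 0.49 in place of 0.11. With each library left out in turn, members called lower in the M6 bud numbered 2 to 5 and called higher 0 to 1, members called for the difference between tissues 0 to 5, and members separated by genotype 8 to 14. Members called higher in the WT bud numbered 1 with 5 TPM added, 0 with no filter, 4 with no minimum difference and 0 to 2 with a library left out. In AK58, members called higher numbered 7 to 23 and lower 1 to 24 with a library left out; lower calls numbered 6 with a filter of 50 normalised reads, 23 with the contrasted groups alone, 24 without both root libraries and 5 by edgeR on recovered reads, which called 14 higher. Where no cause is named, the cause was not tested. None of the members named for a call, for separation by genotype or for 1 of the 5 largest differences changed sign, but 2 medians did. The members' WT bud minus apex median, −0.01, became 0.04 with median centring, 0.04 without WT apex replicate 2, 0.05 without WT bud replicate 1 and 0.003 with a filter of 5 TPM. The M6 bud median over all tested identifiers, 0.03, became −0.01 with median centring, −0.004 without WT bud replicate 1 and −0.05 without M6 bud replicate 1. Counts over the segment stayed within 1.5 times in 143 cases and moved further in 33, and for single genes 391 values kept their call or moved by less than the replicate spread, 39 lost the call and 27 moved by more.

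The labels do not say that replicate numbers pair libraries, and there are only 2 numbers. Differences between replicates 1 and 2 correlated between ZM7698 groups at −0.308 to 0.164 and between AK58 groups at −0.118 to 0.430. With the replicate number as a block, 0 members were called higher in the WT bud and 13 of all tested identifiers in place of 821, with adjusted p of 0.0590 for TraesCS6D02G287300 and 0.0654 for TraesCS6D02G299200 by limma (over all the alternatives 0.0101 to 0.191 and 0.0158 to 0.194), and the other counts stayed within 1.5 times. The unknown read depth of the ZM7698 libraries limits what their 0 values show.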

Other observations

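The segment also held 3 adjacent members that varied together between libraries of one group, TraesCS6D02G296200, TraesCS6D02G296300 and TraesCS6D02G296400. In the WT bud they were at 8.56 and 3.45 TPM, 7.26 and 0.906 TPM, and 9.69 and 1.74 TPM in replicates 1 and 2. In the M6 bud they were at 10.1 and 4.16 TPM, 7.59 and 0.876 TPM, and 4.92 and 0.772 TPM. Replicate 1 was higher for each of them in both bud groups, and in the WT apex replicate 2 was higher for each. They were chosen after their values were seen.

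With the limit for absence raised to 0.5 TPM, 3 members were present in 1 genotype alone; the third, TraesCS6D02G297300, was the one present in M6.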
